A study of Homo sapiens with 10 samples.

Results

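The 33 genes described here belong to the machinery with which a cell shows peptides to T cells, together with a few surface ligands that T cells and natural killer cells read. They were chosen by name, in 4 groups, from the 60642 gene symbols of the expression table. The groups were MHC class I with its activator (7 genes), peptide processing and loading (11), MHC class II (11) and ligands of immune receptors (4).

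Gene expression was measured by bulk RNA-seq of polyA-selected RNA in 5 established human lines of prostate cancer: DU145, PC3, LNCaP, VCAP and DUCAP. There were 2 biological repeats of each, which gave 10 samples. All cells were untreated and were grown to exponential phase in RPMI without phenol red and with fetal bovine serum. Each line is a single established culture derived from a metastasis, and DUCAP and VCAP came from the same patient. The p-values for single genes thus measure the spread between repeats of these 5 lines and not that between tumors.

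MHC class I molecules stand on nearly all nucleated cells. Their heavy chain, encoded by an HLA gene, pairs with B2M and carries a short peptide that the proteasome cut in the cytosol, that the TAP transporter moved into the endoplasmic reticulum and that the loading complex fitted. The immunoproteasome subunits, the transporter and the heavy chains are induced by interferon gamma through IRF1 and NLRC5. MHC class II molecules are made mainly by B cells, dendritic cells and macrophages under the control of CIITA, carry peptides from endosomes, and need the invariant chain CD74 and the HLA-DM editor for loading. Loss of class I is a known route by which tumor cells escape cytotoxic T cells, whereas natural killer cells respond to missing class I and to stress ligands such as MICA and MICB.

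Levels are given as TPM, a measure of transcript abundance that is scaled for transcript length and to a fixed total per sample and so keeps no sequencing depth. Differences are given on the scale log2(TPM + 1), on which 1 unit is close to a doubling for well expressed genes and which understates the change of low ones. They come from limma with all 10 samples, and an adjusted p under 0.05 over the 17520 genes tested is called here. Mitochondrial transcripts took 12.7 to 36.0% of the TPM of a sample and were highest in DUCAP and VCAP, which leaves less of the fixed total to the other genes together. The median difference over all genes tested was 0.40 for DU145 and PC3 against LNCaP, DUCAP and VCAP, and 0.46 for LNCaP against DUCAP and VCAP, and it was 0.22 and 0.26 without mitochondrial genes and 0.02 and 0.00 with median-ratio scaling. The members' differences should be read against these medians. KRT8 and KRT18, keratins of simple epithelia, were expressed in all 10 samples at 98.95 TPM or more. KLK2 and KLK3, kallikreins of prostate luminal cells, were expressed in LNCaP, DUCAP and VCAP but lay at or below 0.77 TPM in DU145 and PC3, and HOXB13, a homeobox gene of prostate epithelium, lay at 0.03 and 0.02 TPM in DU145.

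Of the 33 members, 27 reached 1 TPM in at least 2 samples and were tested, and all 27 differed among the 5 lines in the F-test, where 90.8% of all genes tested did. The 6 that were not tested were HLA-G, CIITA, HLA-DRA, HLA-DQA1, HLA-DOA and PDCD1LG2. Compared with LNCaP, DUCAP and VCAP, DU145 and PC3 had 20 of the 27 members higher (74.1%), against 51.9% of all genes, and 3 lower (11.1%), against 22.5%. Higher by at least 1 unit were 16 members (59.3%), against 26.7% of all genes. The median member difference was 1.39, beside the 0.40 of all genes. CD74 reached 1 TPM in DU145 alone, and MICB in DU145 and PC3 alone. PSMB9 did so in DU145, in PC3 and in LNCaP repeat 2, at 1.08 TPM. These genes passed the filter only through DU145 and PC3, so their direction in this contrast was partly fixed in advance. The direction was not the same in the 4 groups. On the means of lines, all 6 tested class I members and 10 of the 11 loading members were higher in DU145 and PC3. The 7 tested class II members gave 2 higher, 2 lower and 3 without a call. Among the class I members, the mean of PC3 lay below that of LNCaP in HLA-B, HLA-C, HLA-F and NLRC5. In PSMB10, PSME1 and PSME2 the means of both DU145 and PC3 lay below that of LNCaP.

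**Figure D1:**
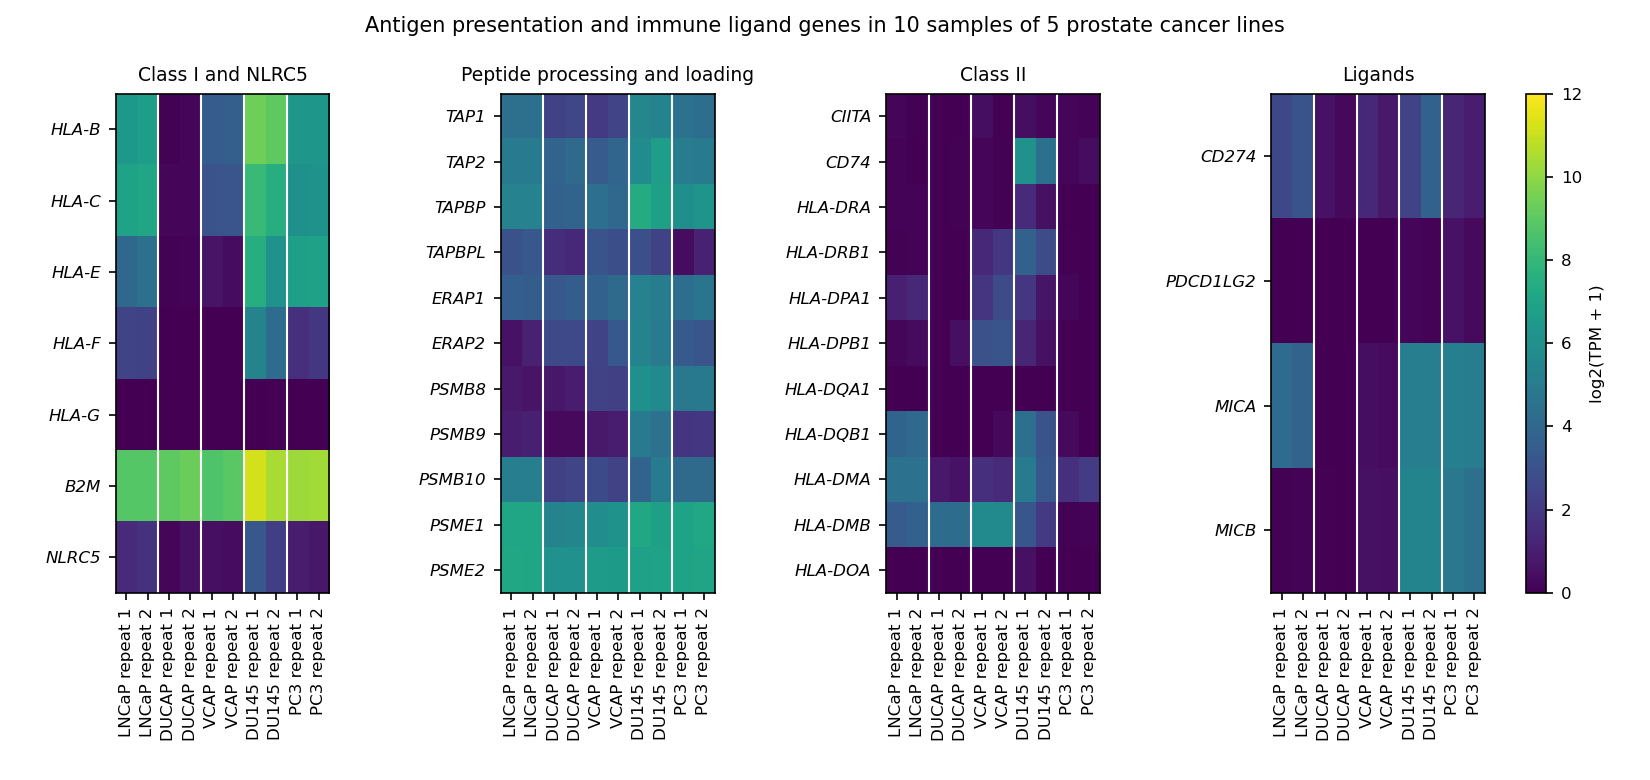
Level of each of the 33 members in each of the 10 samples, as log2(TPM + 1) on a colour scale from 0 (dark) to 12 (light), in 4 panels for the 4 groups, with white lines between the lines of cells. The class I and ligand panels are darkest in DUCAP, B2M is light in all samples, and most class II rows are dark in most samples.

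HLA-B and HLA-C were abundant in DU145, intermediate in PC3 and LNCaP, low in VCAP and close to absent from DUCAP. HLA-E was as high in PC3 as in DU145, HLA-F was listed at 0 in VCAP as well as in DUCAP, and HLA-G was close to absent from every line, whereas the light chain was abundant in all 5 lines. HLA-B encodes a classical heavy chain that presents peptides to cytotoxic T cells. It was measured at 654 and 522 TPM in DU145, 80.3 and 80.8 in PC3, 82.4 and 105 in LNCaP, 10.4 and 11.5 in VCAP and 0.06 and 0.16 in DUCAP. DU145 was highest and DUCAP lowest, and both PC3 repeats lay just below both LNCaP repeats, so the groups compared overlapped. HLA-B was higher in DU145 and PC3 than in the other 3 lines by 4.35 (SE 0.11, adjusted p = 1.6e-08), in DU145 than in PC3 by 2.84 (SE 0.17, adjusted p = 4.0e-06) and in LNCaP than in DUCAP and VCAP by 4.69 (SE 0.14, adjusted p = 1.3e-07). Within the pair from the same patient, DUCAP was below VCAP, with a difference of -3.43 (SE 0.17, adjusted p = 1.1e-05).

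HLA-C, the other classical heavy chain of the list and also a ligand of inhibitory receptors on natural killer cells, had the same order of lines, with LNCaP farther above PC3. Its levels were 268 and 178 TPM in DU145, 64.25 and 71.8 in PC3, 125 and 139 in LNCaP, 7.50 and 8.10 in VCAP and 0.17 and 0.11 in DUCAP. DU145 and PC3 exceeded the other 3 lines by 3.48 (SE 0.12, adjusted p = 8.3e-08), and the difference of LNCaP from DUCAP and VCAP was 5.39 (SE 0.17, adjusted p = 1.4e-07). DUCAP was again below VCAP, by a difference of -2.95 (SE 0.19, adjusted p = 4.6e-05).

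HLA-E, a non-classical heavy chain that displays signal peptides of other class I chains to the receptor NKG2A on natural killer cells, reached 178 and 69.65 TPM in DU145, 109 and 114 in PC3, 15.6 and 20.7 in LNCaP, 0.54 and 0.32 in VCAP and 0.06 and 0.09 in DUCAP. All 4 samples of DU145 and PC3 lay above all 6 of the other lines, and LNCaP lay above DUCAP and VCAP without overlap. The difference of DU145 and PC3 from the other lines, 5.19 (SE 0.24, adjusted p = 3.4e-07), was the largest of all tested members. Between DU145 and PC3 it was -0.00 (SE 0.37, adjusted p = 1.0), and this value hid a split: without DU145 repeat 2 it was 0.67, and without DU145 repeat 1 it was -0.67.

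HLA-F, a second non-classical heavy chain, was listed at 0 in all 4 samples of DUCAP and VCAP. It stood at 40.02 and 17.9 TPM in DU145, 2.21 and 2.85 in PC3, 4.46 and 4.10 in LNCaP, 0 in both repeats of VCAP and 0 in both repeats of DUCAP. DU145 was highest and PC3 lay below LNCaP. HLA-F was higher in DU145 and PC3 than in the other 3 lines by 2.51 (SE 0.20, adjusted p = 7.8e-06) and in DU145 than in PC3 by 2.99 (SE 0.31, adjusted p = 0.00011). HLA-G, the heavy chain known from the placenta, was listed at 0 in 9 samples and at 0.06 TPM in DU145 repeat 2.

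B2M, the light chain that every class I heavy chain needs to reach the surface, was the most abundant member. Its levels were 2363 and 1403.5 TPM in DU145, 1218 and 1305 in PC3, 456 and 455 in LNCaP, 414 and 479.9 in VCAP and 526 and 623 in DUCAP. All DU145 and PC3 samples lay above all samples of the other lines, with a difference of 1.63 (SE 0.15, adjusted p = 1.4e-05). Unlike the heavy chains, B2M was not called between LNCaP and the pair DUCAP and VCAP, with a difference of -0.15 and a 95% interval from -0.60 to 0.30 (called at -0.81 with median-ratio scaling, adjusted p = 0.0074), nor between DUCAP and VCAP, with a difference of 0.36 and an interval from -0.16 to 0.88. In DUCAP, B2M thus stood at 526 and 623 TPM where HLA-B, HLA-C, HLA-E and HLA-F were each at or below 0.17 TPM.

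NLRC5, the activator that drives class I promoters, was low throughout. It was measured at 8.51 and 3.70 TPM in DU145, 0.87 and 0.72 in PC3, 1.70 and 2.35 in LNCaP, 0.39 and 0.30 in VCAP and 0.16 and 0.45 in DUCAP. DU145 was highest, LNCaP next, and PC3, VCAP and DUCAP all lay below 1 TPM. The line means of HLA-B and HLA-C ran in the same order, and those of HLA-E and B2M, both higher in PC3 than in LNCaP, did not. The order of DUCAP and VCAP in NLRC5 is not settled, since their repeats overlapped. Their difference was -0.05 (limma adjusted p = 0.98), while HLA-B and HLA-C were called lower in DUCAP. The difference of DU145 and PC3 from the other lines was 1.00 (SE 0.19, adjusted p = 0.0016), that of DU145 from PC3 was 1.90 (SE 0.30, adjusted p = 0.0011), and that of LNCaP from DUCAP and VCAP was 1.19 (SE 0.26, adjusted p = 0.0038).

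**Figure D2:**
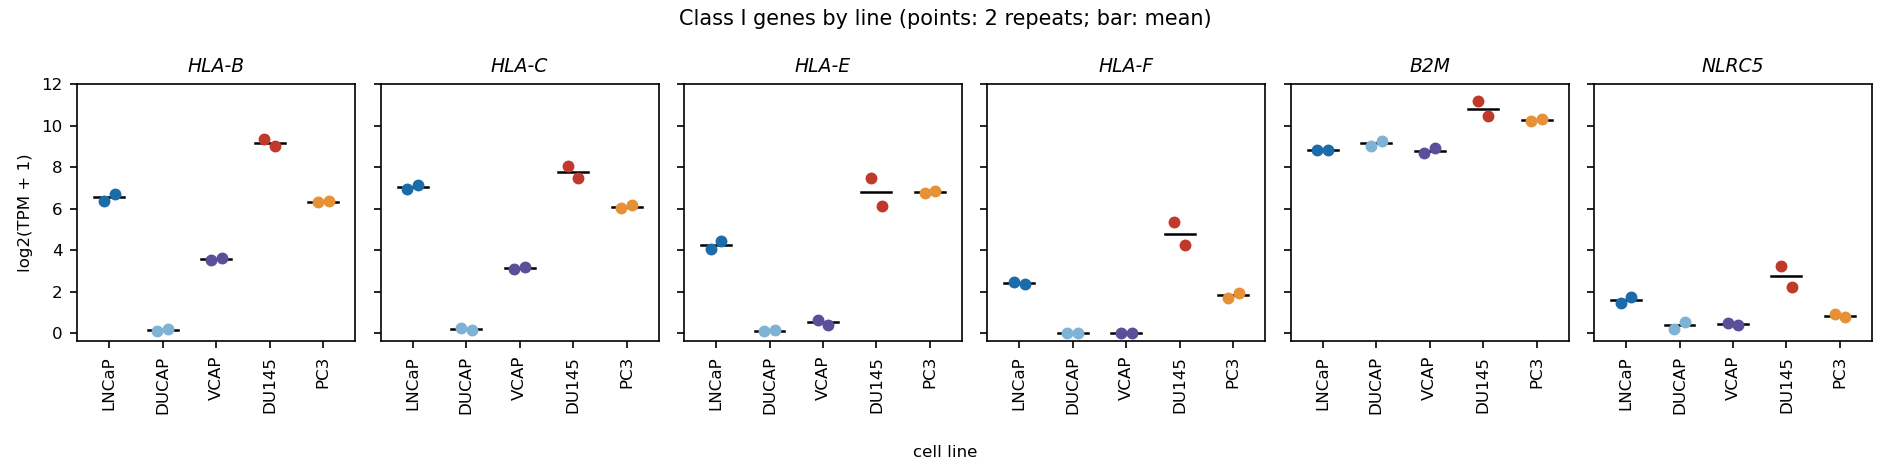
Level of the 6 tested class I members as log2(TPM + 1) (vertical axis) in each of the 5 lines (horizontal axis), with a point for each of the 2 repeats and a bar at their mean. The heavy chains sit near 0 in DUCAP while B2M stays above 8 in every sample.

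The class I heavy chains are near-identical copies that vary strongly between people. RSEM divides reads that match several of them, and a line whose alleles differ from the reference can lose reads, so their separate levels are uncertain and the part of this in the differences was not tested. Fewer cells that express a gene and less RNA per cell cannot be told apart in bulk samples.

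All 6 tested class I members were called higher in the mean of DU145 and PC3, but B2M parted from the heavy chains among the other lines. For this reason the sequences just before their start sites are shown, as RefSeq gives them on GRCh38.p14. They run 5′ to 3′ on the strand of the gene and end at the last base before the start. Capitals mark matches, on either strand, to 3 sets of letters that are bound in such promoters: the interferon-stimulated response core (GAAA, any 2 bases and GAAA), the X2 box core TGACGC and the CCAAT box GATTGG. The first listed start of each gene was used.
HLA-B (chr6:31357180-31357359, minus strand): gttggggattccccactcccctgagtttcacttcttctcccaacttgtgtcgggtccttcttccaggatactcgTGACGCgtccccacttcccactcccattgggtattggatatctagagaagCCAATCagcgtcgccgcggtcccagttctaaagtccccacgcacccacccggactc
HLA-C (chr6:31272093-31272272, minus strand): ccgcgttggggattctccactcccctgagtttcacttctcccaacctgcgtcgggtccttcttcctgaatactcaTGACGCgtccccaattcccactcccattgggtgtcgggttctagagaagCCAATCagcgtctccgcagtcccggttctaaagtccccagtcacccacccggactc
HLA-F (chr6:29723254-29723433, plus strand): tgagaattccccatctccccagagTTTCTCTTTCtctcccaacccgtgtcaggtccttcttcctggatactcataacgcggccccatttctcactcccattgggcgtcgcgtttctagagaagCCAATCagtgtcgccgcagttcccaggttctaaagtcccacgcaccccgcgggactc
B2M (chr15:44711337-44711516, plus strand): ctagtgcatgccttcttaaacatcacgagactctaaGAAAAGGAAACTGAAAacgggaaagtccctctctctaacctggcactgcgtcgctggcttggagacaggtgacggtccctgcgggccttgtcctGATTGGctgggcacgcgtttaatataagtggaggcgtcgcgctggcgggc

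HLA-B and HLA-C, whose order of lines was nearly the same, shared 89.0% of 254 aligned bases in the 250 before the start, and both held the X2 core, beginning 106 and 105 bases before the start, and a CCAAT box beginning 56 bases before it. HLA-F shared 80.4% with HLA-B, and held the interferon core and the CCAAT box but no X2 core of these letters. B2M, on another chromosome, held 2 overlapping interferon cores and a CCAAT box. Of the 33 members, 28 had a promoter entry, and HLA-E, HLA-DRA, NLRC5, CIITA and PDCD1LG2 had none. The interferon core was found before 8 of the 28 (HLA-F, B2M, TAP1, TAP2, TAPBP, PSMB10, PSME2 and CD274), against 3.02% of the 35116 promoters of the same length in RefSeq. The X2 core was found before 3 (HLA-B, HLA-C and TAP2), against 7.67%, and the CCAAT box before 12, against 14.1%. A match is a description of letters and not a bound site. The lack of a match shows only that these exact letters were not in the 250 bases searched. It does not show that a gene has no such element.

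The heavy chains, MICA, MICB, the transporter, tapasin, 2 immunoproteasome genes and the HLA class II genes lie in the MHC on chromosome 6, where all 21 members of that chromosome fell within chr6:29723434-33314078 of GRCh38.p14. The levels of neighbouring genes are given beside those of the members. Between HLA-F and MICB, 38 other protein-coding genes that belong to none of the lists used here and are not HLA genes were matched. Of these, 24 had a mean of at least 1 TPM in LNCaP, 23 in DUCAP, 23 in VCAP, 24 in DU145 and 24 in PC3. The median level of the 25 that reached 1 TPM in any line was 29.4 TPM in LNCaP, 14.3 in DUCAP, 15.3 in VCAP, 43.1 in DU145 and 38.2 in PC3. The listed neighbours nearest to HLA-C and MICB were POU5F1 and MCCD1, at -189.5 and 175.1 kb from HLA-B. No listed neighbour thus lay among HLA-C, HLA-B, MICA and MICB. Some neighbours were near 0 in DUCAP as well. IER3 had a mean of 0 TPM in DUCAP and 260 in DU145, and PSORS1C1 of 0.045 and 15.1. Whether the low class I levels of DUCAP belong to a wider stretch of the chromosome was not tested.

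**Figure D3:**
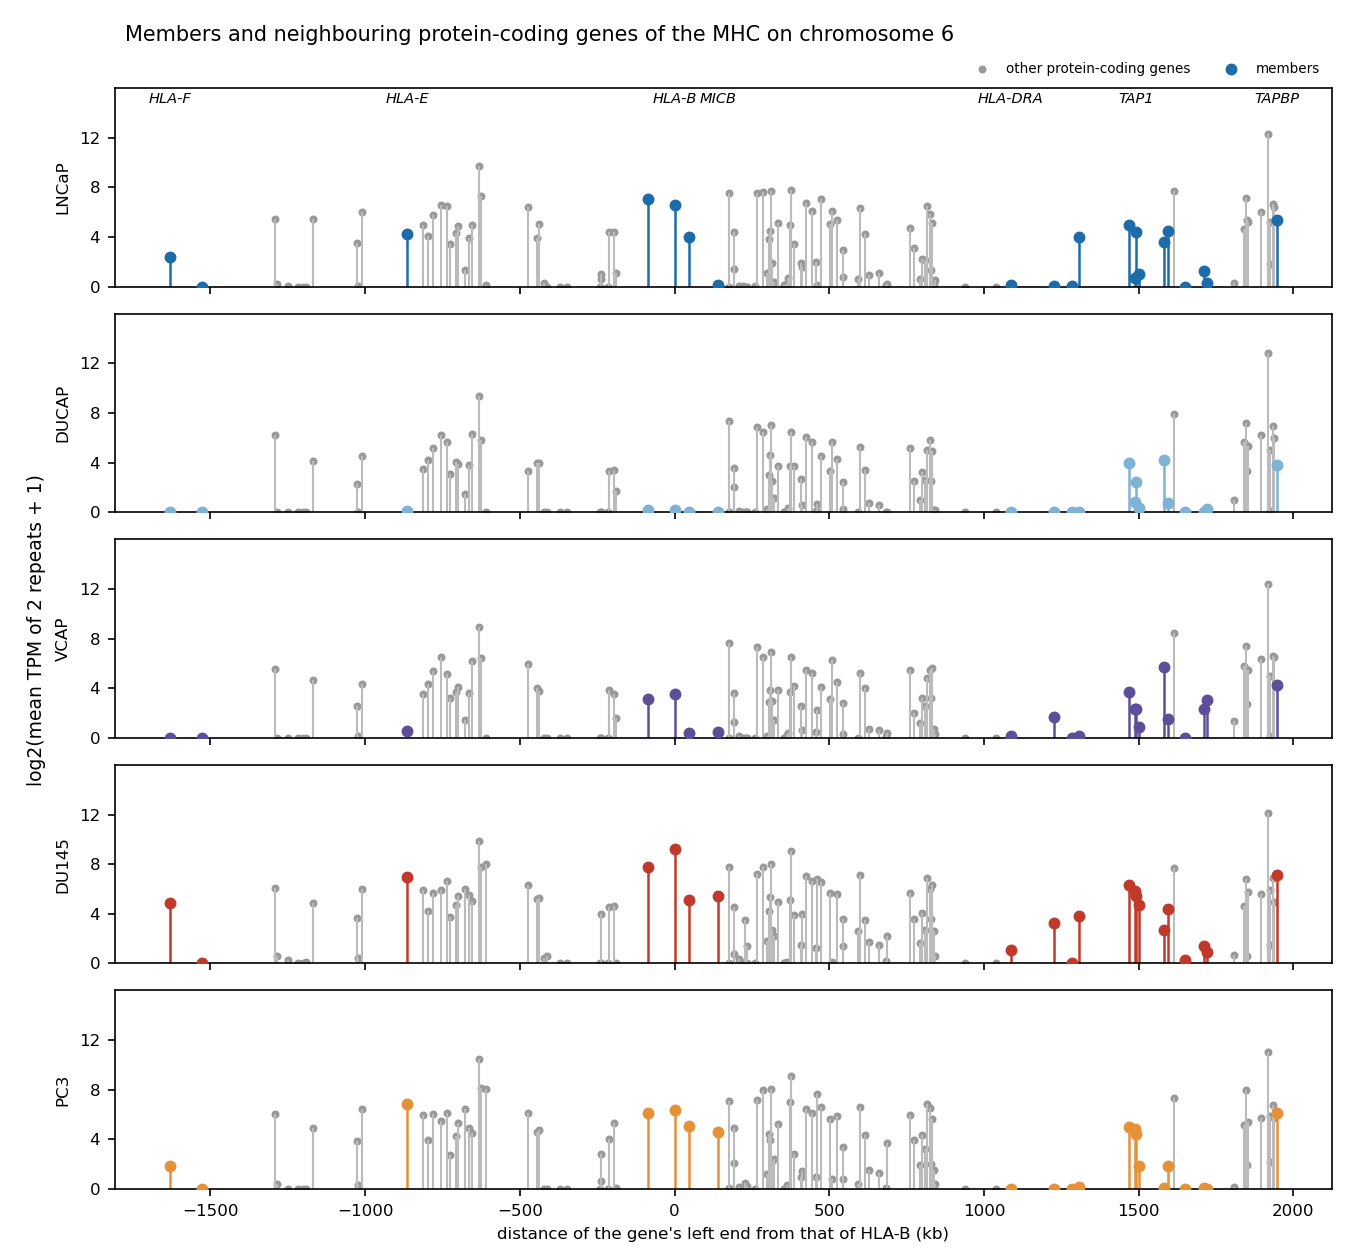
Mean level of each gene as log2(TPM + 1) (vertical axis) against the distance in kb of its left end from that of HLA-B (horizontal axis), for the 21 members on chromosome 6 (coloured) and 109 other protein-coding genes between HLA-F and TAPBP (grey), with a panel for each line. In DUCAP the members left of 500 kb sit at the axis while many grey neighbours left of 500 kb stand well above it.

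Among genes of peptide processing and loading, the line means of TAP1, TAP2, TAPBP and PSMB9 were lowest in DUCAP and VCAP and highest in DU145. The other members of this group had other orders of lines. TAP1 and TAP2 form the transporter that brings peptides into the endoplasmic reticulum. TAP1 was measured at 45.3 and 40.6 TPM in DU145, 22.4 and 19.4 in PC3, 20.6 and 20.3 in LNCaP, 3.08 and 4.77 in VCAP and 4.24 and 4.79 in DUCAP. DU145 was highest, LNCaP and PC3 overlapped, and DUCAP and VCAP lay below 5 TPM. TAP1 was higher in DU145 and PC3 than in the other lines by 1.90 (SE 0.12, adjusted p = 2.0e-06), and in LNCaP than in DUCAP and VCAP by 2.05 (SE 0.16, adjusted p = 1.3e-05). TAP2 was at 54 and 103 TPM in DU145, 32.15 and 29.1 in PC3, 30.55 and 30.9 in LNCaP, 9.99 and 14 in VCAP and 13.02 and 16.8 in DUCAP. Its repeats in DU145 differed more than those of TAP1 and in the other direction, with repeat 2 higher. DU145 and PC3 exceeded the other lines by 1.39 (SE 0.19, adjusted p = 0.00019).

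TAPBP, or tapasin, bridges the transporter and the empty class I molecule. Its levels were 164 and 112 TPM in DU145, 62.03 and 72.4 in PC3, 39.3 and 39.5 in LNCaP, 20.03 and 15.8 in VCAP and 12.25 and 13.7 in DUCAP. The samples of DU145 and PC3 lay above all others, with a difference of 2.13 (SE 0.13, adjusted p = 1.6e-06). TAPBPL, a relative of tapasin that edits peptides outside the loading complex, went the other way. It was at 6.59 and 4.03 TPM in DU145, 0.32 and 1.17 in PC3, 6.89 and 8.45 in LNCaP, 7.59 and 6.32 in VCAP and 1.97 and 1.57 in DUCAP. PC3 was lowest and the other lines overlapped in part, so that DU145 and PC3 together were lower than the other 3 lines by a difference of -0.83 (SE 0.18, adjusted p = 0.0033), and DU145 was above PC3 by 1.87 (SE 0.28, adjusted p = 0.00088).

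ERAP1 and ERAP2 are aminopeptidases that trim peptides to the length class I holds. ERAP1 was at 39.6 and 33.4 TPM in DU145, 19.4 and 23.6 in PC3, 11.1 and 10.6 in LNCaP, 12.2 and 16.6 in VCAP and 8.50 and 10.5 in DUCAP. DU145 and PC3 lay above the other lines without overlap, by 1.23 (SE 0.12, adjusted p = 3.3e-05). ERAP2 was at 40.1 and 28.7 TPM in DU145, 9.45 and 8.08 in PC3, 0.48 and 1.13 in LNCaP, 4.48 and 8.95 in VCAP and 5.30 and 5.33 in DUCAP. LNCaP was lowest, at about 1 TPM or less, and was below DUCAP and VCAP with a difference of -1.94 (SE 0.27, adjusted p = 0.00028), the reverse of its order for the heavy chains. DU145 and PC3 exceeded the other 3 lines by 2.08 (SE 0.20, adjusted p = 2.3e-05). The RefSeq spans of ERAP1 and ERAP2 overlap on chromosome 5, as do those of HLA-DPA1 and HLA-DPB1 on chromosome 6. The libraries were strand-specific, but whether the counting used strand is not given in the sources used here, so the division of reads within such a pair is uncertain.

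Interferon gamma exchanges the 3 catalytic subunits of the standard proteasome, PSMB5, PSMB6 and PSMB7, for PSMB8, PSMB9 and PSMB10, which changes the peptides that are cut. PSMB8 was measured at 63.3 and 50.2 TPM in DU145, 27.3 and 27.97 in PC3, 0.75 and 0.56 in LNCaP, 3.96 and 3.86 in VCAP and 0.73 and 0.87 in DUCAP. All 4 samples of DU145 and PC3 were above 27 TPM and all 6 others below 4 TPM, and the difference was 4.05 (SE 0.11, adjusted p = 1.9e-08). VCAP lay above DUCAP, which gave a DUCAP against VCAP difference of -1.45 (SE 0.16, adjusted p = 0.00075). PSMB9, whose start site is 488 bases from that of TAP1 and points away from it, was at 28.7 and 22.3 TPM in DU145, 2.54 and 2.76 in PC3, 0.96 and 1.08 in LNCaP, 0.75 and 0.86 in VCAP and 0.24 in both repeats of DUCAP. It exceeded the other lines in DU145 and PC3 by 2.57 (SE 0.10, adjusted p = 1.5e-07), but PC3 reached only 2.54 and 2.76 TPM, and DU145 exceeded PC3 by 2.85 (SE 0.16, adjusted p = 3.0e-06).

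PSMB10 had another order of lines. It was at 13.2 and 29.99 TPM in DU145, 17.01 and 16.7 in PC3, 34.2 and 34.05 in LNCaP, 5.47 and 4.01 in VCAP and 3.90 and 4.61 in DUCAP. LNCaP was highest, and LNCaP exceeded DUCAP and VCAP by 2.68 (SE 0.28, adjusted p = 5.7e-05). The difference of DU145 and PC3 from the other lines was 0.93 (SE 0.21, adjusted p = 0.0035), which was lost with quantile normalization (0.36, adjusted p = 0.15). LNCaP thus had the highest PSMB10 together with PSMB8 and PSMB9 at or below 1.08 TPM.

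PSME1 and PSME2, the subunits of the PA28 activator that caps the proteasome, were expressed at 40.1 TPM or more in all samples. PSME1 was at 143 and 113 TPM in DU145, 124 and 144 in PC3, 134 and 138 in LNCaP, 58.6 and 71.4 in VCAP and 40.1 and 44.9 in DUCAP. DUCAP and VCAP lay below the other 3 lines, which overlapped. PSME2 was at 116 and 124 TPM in DU145, 125 and 126 in PC3, 147 and 133 in LNCaP, 98.97 and 91.85 in VCAP and 65.5 and 66.3 in DUCAP. Its difference between DU145 and PC3 and the other lines, 0.35 (SE 0.07, adjusted p = 0.0021), was below the median of all genes and turned to -0.11 with median-ratio scaling and to -0.18 with quantile normalization.

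TAP1 and PSMB9 are read from opposite strands of a shared stretch of DNA, and the 180 bases before each start are shown because the levels of the pair were nearest in DU145 and farther apart in the other lines. TAP1 was near 20 TPM in LNCaP and PC3, while PSMB9 was near 1 TPM in LNCaP and below 3 TPM in PC3, and in DUCAP TAP1 was above 4 TPM and PSMB9 at 0.24 TPM. The capitals mark 2 overlapping interferon cores before TAP1, and the PSMB9 window held none of the 3 sets of letters. The TAP1 cores lie in the stretch between both genes, outside the bases searched for PSMB9.
TAP1 (chr6:32853705-32853884, minus strand): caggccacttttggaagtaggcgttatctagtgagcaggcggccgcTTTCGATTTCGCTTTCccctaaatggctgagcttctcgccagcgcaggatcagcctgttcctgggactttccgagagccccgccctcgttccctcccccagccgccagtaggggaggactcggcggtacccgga
PSMB9 (chr6:32854012-32854191, plus strand): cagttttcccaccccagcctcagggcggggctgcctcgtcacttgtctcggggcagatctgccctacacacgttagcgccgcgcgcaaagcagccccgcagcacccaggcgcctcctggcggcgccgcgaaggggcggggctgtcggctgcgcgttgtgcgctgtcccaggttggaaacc

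The balance of immunoproteasome and standard subunits was compared within each sample. The log2 ratio of PSMB8 to PSMB5, with 1 TPM added to both, was -1.07 and -1.92 in DU145, -3.34 and -3.35 in PC3, -3.88 and -4.19 in VCAP, -5.62 and -5.72 in DUCAP and -7.22 and -7.17 in LNCaP. It averaged -2.42 ± 1.12 (SD, n = 4) in DU145 and PC3 and -5.63 ± 1.42 (SD, n = 6) in the other lines, a difference of 3.21 in a two-sided exact permutation test over samples (p = 0.0095, the smallest that the 210 splits allow, adjusted over 3 ratios to 0.029). All 4 samples of DU145 and PC3 lay above the 6 others. The ratio of PSMB9 to PSMB6 differed by 1.06 (exact permutation p = 0.22, adjusted 0.33), and by 2.06 (exact permutation p = 0.057, not adjusted) with 0.1 TPM added, so its size depends on the value added to the low PSMB9 levels. With 0.1 TPM added the PSMB8 to PSMB5 difference was 3.98. The ratio of PSMB10 to PSMB7 differed by 0.64 (exact permutation p = 0.40, adjusted 0.40), with LNCaP highest at -2.16 and -2.12. These tests treat the repeats of a line as independent samples, so their p-values mix the spread between lines with that between repeats. For a comparison of 2 lines with 3 these p-values are too small.

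**Figure D4:**
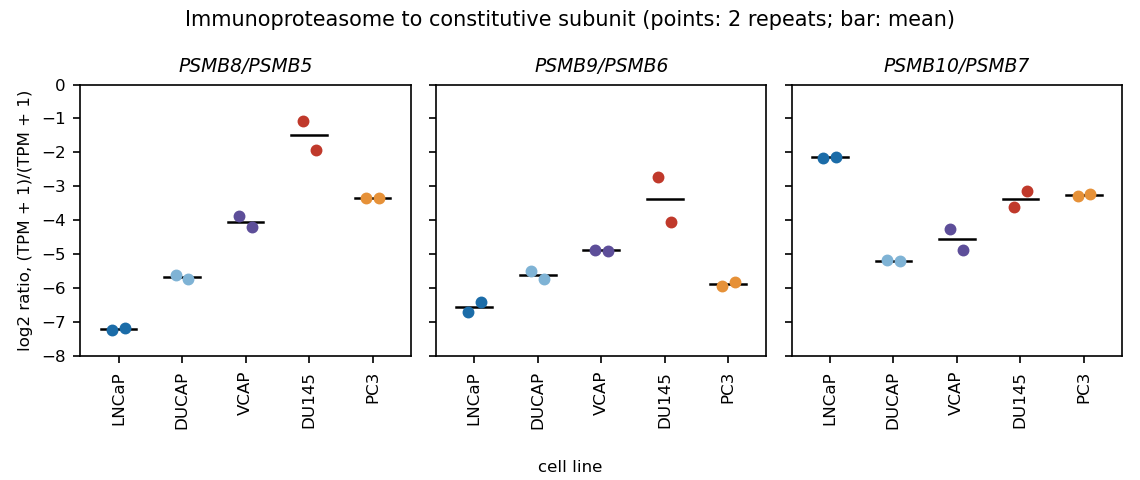
The log2 ratio of each immunoproteasome subunit to the standard subunit it replaces, with 1 TPM added to both (vertical axis), in each of the 5 lines (horizontal axis), with a point for each of the 2 repeats and a bar at their mean. PSMB8/PSMB5 climbs from LNCaP to DU145, while PSMB10/PSMB7 is highest in LNCaP.

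Class II genes were low in most lines, and the lines that held them differed from gene to gene. CIITA, the activator without which class II genes are silent in most cells, lay between 0 and 0.38 TPM in the 10 samples, and DU145 repeat 1 was highest. HLA-DRA ranged from 0 to 1.79 TPM with its highest value in the same sample, HLA-DQA1 did not exceed 0.03 TPM, and HLA-DOA was listed at 0 in 9 samples and at 0.43 TPM in DU145 repeat 1. These 4 were not tested.

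CD74 is the invariant chain that fills the groove of new class II molecules. It was measured at 65.3 and 20.4 TPM in DU145, 0.11 and 0.31 in PC3, 0.10 and 0 in LNCaP, 0.17 and 0.05 in VCAP and 0 and 0.05 in DUCAP. Only DU145 exceeded 1 TPM among these lines, and its repeat 1 was well above repeat 2. The difference of DU145 from PC3 was 4.96 (SE 0.43, adjusted p = 3.7e-05), and without DU145 repeat 1 and without repeat 2 it stayed called. HLA-DRB1, a beta chain of the DR heterodimer, was at 11.8 and 5.81 TPM in DU145, 0.04 and 0 in PC3, 0.04 and 0.09 in LNCaP, 1.58 and 2.87 in VCAP and 0 in both repeats of DUCAP. DU145 was highest and VCAP next, with a DUCAP against VCAP difference of -1.66 (SE 0.29, adjusted p = 0.0062) and a DU145 against PC3 difference of 3.19 (SE 0.29, adjusted p = 4.9e-05).

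The DP chains were highest in VCAP. HLA-DPA1, the alpha chain, was at 2.71 and 0.58 TPM in DU145, 0.12 and 0 in PC3, 1.11 and 1.57 in LNCaP, 2.56 and 5.69 in VCAP and 0 in both repeats of DUCAP. DUCAP, listed at 0, was called below VCAP (adjusted p = 0.0065), a call lost without DUCAP repeat 1 (adjusted p = 0.051). HLA-DPB1, the beta chain, was at 1.44 and 0.43 TPM in DU145, 0 in both repeats of PC3, 0.17 and 0.26 in LNCaP, 6.87 and 7.72 in VCAP and 0 and 0.42 in DUCAP. VCAP lay above all other samples, and DUCAP differed from it by -2.80 (SE 0.26, adjusted p = 0.00024). HLA-DPB1 was lower in DU145 and PC3 than in the other 3 lines, with a difference of -0.74 (SE 0.17, adjusted p = 0.0034), which rests on VCAP since LNCaP and DUCAP lay at or below 0.42 TPM.

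HLA-DQB1, the beta chain of DQ, was listed in LNCaP and DU145 with HLA-DQA1, its partner, at or below 0.03 TPM. These genes too vary strongly between people and have close copies, so that the caution on the division of reads holds for the DQ and DRB1 levels. Its levels were 19.6 and 7.28 TPM in DU145, 0.22 and 0 in PC3, 13.5 and 16.2 in LNCaP, 0 and 0.18 in VCAP and 0.03 and 0.01 in DUCAP. LNCaP exceeded DUCAP and VCAP by 3.91 (SE 0.32, adjusted p = 1.4e-05) and DU145 exceeded PC3 by 3.56 (SE 0.37, adjusted p = 9.7e-05).

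HLA-DMA and HLA-DMB encode the 2 chains of the DM editor, which removes the invariant chain fragment and selects peptides, and their levels did not run together over the lines. HLA-DMA was at 30.7 and 8.69 TPM in DU145, 2.03 and 3.29 in PC3, 22.4 and 21.3 in LNCaP, 2.21 and 1.67 in VCAP and 0.75 and 0.52 in DUCAP. HLA-DMB was at 8.29 and 3.05 TPM in DU145, 0.06 and 0.09 in PC3, 10.02 and 12.1 in LNCaP, 51.02 and 50.7 in VCAP and 17.7 and 18.1 in DUCAP. HLA-DMA was highest in LNCaP and DU145, while HLA-DMB was highest in VCAP, followed by DUCAP. LNCaP exceeded DUCAP and VCAP in HLA-DMA by 3.39 (SE 0.41, adjusted p = 0.00013) and was below them in HLA-DMB with a difference of -1.38 (SE 0.29, adjusted p = 0.0028). HLA-DMB had the largest decrease of all members in DU145 and PC3, -3.15 (SE 0.21, adjusted p = 2.8e-06), where HLA-DMA was not called (0.73, adjusted p = 0.055) except in alternatives such as that without DU145 repeat 2 (1.16, adjusted p = 0.00015). DMA and DMB lie on the minus strand of chromosome 6, 7590 bases apart, and the bases before their starts shared 51.5% of aligned positions. Both held a CCAAT box, in capitals, at different distances from the start.
HLA-DMA (chr6:32953098-32953277, minus strand): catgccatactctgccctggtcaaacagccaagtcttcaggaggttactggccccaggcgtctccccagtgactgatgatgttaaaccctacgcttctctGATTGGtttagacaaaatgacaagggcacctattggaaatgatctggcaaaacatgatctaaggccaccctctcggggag
HLA-DMB (chr6:32941029-32941208, minus strand): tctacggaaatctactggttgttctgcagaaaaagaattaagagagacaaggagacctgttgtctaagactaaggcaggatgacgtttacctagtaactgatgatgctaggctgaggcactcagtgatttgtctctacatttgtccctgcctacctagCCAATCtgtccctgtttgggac

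Between DU145 and PC3, 21 of the 27 tested members were higher in DU145 (77.8%), against 23.8% of all genes tested, and 0 were lower, against 25.5%. At an unadjusted p under 0.05 limma still gave 0 lower. All 7 tested class II members were among those higher, and the median class II difference was 2.51, beside 0.00 for all genes. CD74 passed the filter only through its DU145 samples, so its direction here was fixed in advance. The class II members that did not pass are not counted. Without DU145 repeat 1, HLA-DPA1 (0.58, adjusted p = 0.18) and HLA-DPB1 (0.52, adjusted p = 0.074) were no longer called, the count was 19 higher, and HLA-E was called lower. The HLA-DPA1 call was lost in 11 of 18 alternatives. Among them were the replicate block (limma adjusted p = 0.052), median-ratio scaling (limma adjusted p = 0.054) and quantile normalization (limma adjusted p = 0.064). The HLA-DPB1 call was lost in 4 of 17, among them quantile normalization (limma adjusted p = 0.069). Thus 5 of the 7 class II calls were kept in every alternative in which the gene was tested.

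The repeats of DU145 stood apart from those of the other lines in these genes. Of the 27 tested members, 10 differed by at least 1 unit between the DU145 repeats, while 0 did so in each of the other 4 lines. Over all genes the share was 9.48% in DU145 and 0.902 to 2.12% in the others. Higher in repeat 1 by at least 1 unit were 8 members, HLA-E, HLA-F, NLRC5, CD74, HLA-DPA1, HLA-DQB1, HLA-DMA and HLA-DMB, where 5.70% of all genes were. PSMB10 and CD274 were higher in repeat 2. Those 8 included 5 of the 7 tested class II members.

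Markers of blood cells were looked at beside these values, since class II is a property of such cells. The 10 markers summed to 75.8 to 109 TPM in DU145, 35.1 to 39.3 in PC3, 2.45 to 3.89 in LNCaP, 0.570 to 0.690 in DUCAP and 0.430 to 0.950 in VCAP. In DU145 and PC3 nearly all of this was CD68, a lysosomal protein of macrophages and of other cells, which was at 101 and 74.0 TPM in DU145. The other 9 markers summed to 1.81 to 7.97 TPM in DU145 and to at most 0.810 TPM in any other line. CD79A, of B cells, was at 5.09 and 0.67 TPM in the DU145 repeats and CD14, of monocytes, at 1.43 and 0.69 TPM. PTPRC, the pan-leukocyte CD45, and CD3E and MS4A1, of T and B cells, were listed at 0 in both DU145 repeats. The part of these markers in the class II values was not tested.

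The ligands were MICA and MICB, stress ligands of the activating receptor NKG2D, and CD274 and PDCD1LG2, the ligands PD-L1 and PD-L2 of the inhibitory receptor PD-1. MICA was measured at 34.3 and 34.6 TPM in DU145, 34.7 and 32.35 in PC3, 17.4 and 13.1 in LNCaP, 0.36 and 0.28 in VCAP and 0 in both repeats of DUCAP. It was listed at 0 in both DUCAP repeats, and the DU145 and PC3 samples, all above 32 TPM, lay above all others. The difference from the other 3 lines was 3.66 (SE 0.11, adjusted p = 3.1e-08), DU145 and PC3 differed by 0.04 with a 95% interval from -0.34 to 0.42, and LNCaP exceeded DUCAP and VCAP by 3.81 (SE 0.14, adjusted p = 3.3e-07). MICB was at 41.99 and 41.3 TPM in DU145, 26.55 and 20.85 in PC3, 0.06 and 0.10 in LNCaP, 0.46 and 0.39 in VCAP and 0.04 and 0.02 in DUCAP. LNCaP, which expressed MICA, lay at or below 0.10 TPM for MICB, so LNCaP stood with DUCAP and VCAP in this gene, with a difference of -0.17 and an interval from -0.48 to 0.15. In MICB, DU145 and PC3 exceeded the other lines by 4.79 (SE 0.10, adjusted p = 8.7e-09).

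The promoters of MICA and MICB are shown because the pair parted in LNCaP. They shared 82.7% of 254 aligned bases, and both held the CCAAT box, in capitals, with neither of the other sets of letters. MICA and MICB are close copies as well, and the caution on the division of reads holds for them.
MICA (chr6:31403415-31403594, plus strand): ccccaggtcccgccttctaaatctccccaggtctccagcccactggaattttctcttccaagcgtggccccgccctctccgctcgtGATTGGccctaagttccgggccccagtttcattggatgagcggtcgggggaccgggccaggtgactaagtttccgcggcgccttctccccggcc
MICB (chr6:31497965-31498144, plus strand): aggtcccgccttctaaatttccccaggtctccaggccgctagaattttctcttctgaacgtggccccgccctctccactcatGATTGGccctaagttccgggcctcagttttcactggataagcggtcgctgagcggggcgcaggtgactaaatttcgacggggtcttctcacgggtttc

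CD274 was measured at 4.55 and 12.2 TPM in DU145, 1.45 and 0.89 in PC3, 5.00 and 7.75 in LNCaP, 1.64 and 0.75 in VCAP and 0.48 and 0.19 in DUCAP. LNCaP and DU145 were highest, DUCAP was lowest, and PC3 lay within the range of VCAP. The difference of DU145 and PC3 from the other lines did not pass the test (0.65, adjusted p = 0.053), although it did without DU145 repeat 1 (0.96, adjusted p = 0.0024), whereas DU145 exceeded PC3 by 1.99 (SE 0.41, adjusted p = 0.0041) and LNCaP exceeded DUCAP and VCAP by 2.10 (SE 0.35, adjusted p = 0.00089). PDCD1LG2 was listed at 0 in the 6 samples of LNCaP, DUCAP and VCAP and lay between 0.07 and 0.50 TPM in DU145 and PC3.

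**Figure D5:**
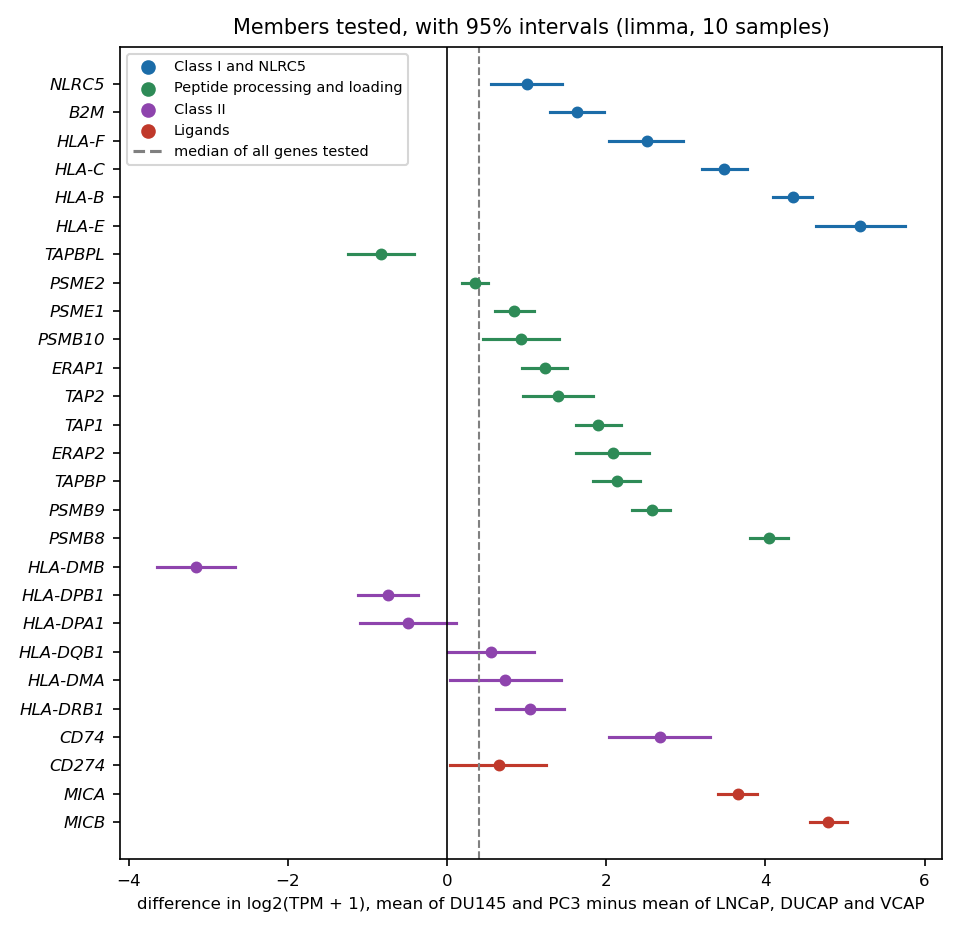
Difference in log2(TPM + 1) between DU145 and PC3 and the other 3 lines (horizontal axis) for the 27 tested members (vertical axis), with points at the estimate, bars for 95% intervals from limma, a colour for each of the 4 groups, and a dashed line at the median of all genes tested, 0.40. The class I members and the MIC genes lie right of that line, the intervals of PSME2, CD274, HLA-DQB1 and HLA-DMA cross it, and HLA-DMB lies farthest to the left at -3.15.

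LNCaP differed from DUCAP and VCAP in most of these genes. Of the 27 tested members, 17 were higher in LNCaP (63.0%), against 49.2% of all genes, and 5 were lower (18.5%), against 15.5%. Higher by at least 1 unit were 14, against 29.7% of all genes, and the median difference was 1.16, beside 0.46 for all genes. With median-ratio scaling the split was 13 higher and 7 lower, where 30.6% of all genes were higher and 29.1% lower, and with quantile normalization it was 13 and 6, against 30.5% and 29.4%. The 5 lower in LNCaP were ERAP2, PSMB8, HLA-DRB1, HLA-DPB1 and HLA-DMB. For HLA-DRB1 and HLA-DPB1 this rests on VCAP, since DUCAP was not above LNCaP on average, and the HLA-DRB1 call was lost in 6 of 18 alternatives (limma adjusted p from 0.065 to 0.13).

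Between DUCAP and VCAP, 11 members were lower in DUCAP (40.7%), against 14.0% of all genes, and 0 were higher, against 4.24%. At an unadjusted p under 0.05 limma gave 0 higher and 14 lower. The 11 were HLA-B, HLA-C, TAPBPL, PSMB8, PSMB9, PSME1, PSME2, HLA-DRB1, HLA-DPA1, HLA-DPB1 and HLA-DMB, and the median over all 27 was -0.53, beside -0.12 for all genes. The calls of PSMB9 and PSME1 were each lost in 12 of 18 alternatives (limma adjusted p from 0.051 to 0.19). Only 6 were called without DUCAP repeat 1, without DUCAP repeat 2 or without VCAP repeat 1.

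Beyond the members, 53 other genes of the pathway were listed in 4 groups, and 40 of them were tested. In DU145 and PC3, 27 of these 40 were higher, against the same 51.9% of all genes, and 2 were lower than in the other 3 lines, but with quantile normalization the split was 15 and 8, where 34.4% of all genes were higher and 39.0% lower, and with median-ratio scaling 18 and 8, against 37.8% and 34.8%. Among the 16 regulators, 12 were higher, 1 was lower and 3 were not called. IRF1, the transcription factor that binds the interferon core, was at 25.2 and 22.99 TPM in DU145, 15.1 and 11.9 in PC3, 2.61 and 2.80 in LNCaP, 2.83 and 3.01 in VCAP and 3.82 and 4.11 in DUCAP. The DU145 and PC3 samples lay above all others in this gene, with a difference of 2.19 (SE 0.10, adjusted p = 3.7e-07).

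JAK1, the kinase that interferon receptors need, had the largest increase among the regulators. It was at 34.1 and 33.3 TPM in DU145, 51.4 and 47.3 in PC3, 1.00 and 1.98 in LNCaP, 11.8 and 13.5 in VCAP and 10.4 and 10.2 in DUCAP. LNCaP was lowest, below DUCAP and VCAP with a difference of -2.35 (SE 0.17, adjusted p = 7.7e-06), and DU145 and PC3 exceeded the other 3 lines by 2.53 (SE 0.13, adjusted p = 5.0e-07). The 3 subunits of the RFX complex, which binds the X box of class I and class II promoters, were expressed in every line. RFX5 was at 116.5 and 88.96 TPM in DU145, 28.45 and 32.8 in PC3, 67.1 and 68.9 in LNCaP, 19.7 and 20.5 in VCAP and 23.4 and 26.02 in DUCAP. RFXANK was at 59.15 and 50.7 TPM in DU145, 83.3 and 89.5 in PC3, 63.04 and 65.6 in LNCaP, 16.7 and 15.2 in VCAP and 25.7 and 25.8 in DUCAP. RFXAP, at 2.14 to 4.07 TPM over the 10 samples, was the only regulator called lower in DU145 and PC3 (-0.27 (SE 0.09, adjusted p = 0.026)).

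Among the 8 loading partners, 4 were higher (50.0%, against 51.9% of all genes) and 4 were not called, with the largest increase in PSMB6 (1.51 (SE 0.18, adjusted p = 7.6e-05)). Among the 9 class II partners, 4 were tested and 3 were higher (75.0%), with the largest increase in IFI30, a thiol reductase of the endosome that is induced by interferon gamma. IFI30 was at 28.5 and 13.3 TPM in DU145, 17.1 and 16.1 in PC3, 1.04 and 0.98 in LNCaP, 13.7 and 12.6 in VCAP and 2.30 and 2.05 in DUCAP. LNCaP was lowest, and VCAP overlapped DU145. Among the 20 other immune ligands, 12 were tested, of which 8 were higher (66.7%) and 1 was lower (8.33%). RAET1G, among the 8 higher, reached 1 TPM in DU145 and PC3 alone and so entered the test only through them. TNFSF9, the ligand of the costimulatory receptor 4-1BB, had the largest increase and was at 33.2 and 26.1 TPM in DU145, 2.03 and 1.95 in PC3, 1.68 and 2.46 in LNCaP, 0.07 and 0.10 in VCAP and 0 and 0.07 in DUCAP. DU145 alone exceeded 3 TPM. CD276, or B7-H3, an immune checkpoint protein of the B7 family, was the one called lower, at 60.9 and 53.3 TPM in DU145, 51.3 and 48.4 in PC3, 97.5 and 98.2 in LNCaP, 148 and 160.4 in VCAP and 109 and 135 in DUCAP. All 4 samples of DU145 and PC3 lay below all 6 others, with a difference of -1.18 (SE 0.09, adjusted p = 5.5e-06).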

How the data were processed

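The authors checked the reads with FastQC 0.11.9, trimmed them with Trim Galore 0.6.5, aligned them with STAR 2.7.2b to GRCh38 with the transcriptome of Ensembl 99 and Gencode 33, and quantified genes with RSEM 1.3.3, per the processing notes and the paper's methods. They deposited the TPM of 60642 gene symbols for each sample, without pooling. Read depth was not given with the TPM, so precision rests on 2 repeats a line.

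Here 1 TPM was added and log2 taken. Genes that reached 1 TPM in 2 samples or more (17520) entered a limma fit (version 3.58.1, R 4.3.3) that gave every line its own mean and let the prior variance follow a trend. An F-test over the lines and 4 orthogonal contrasts were adjusted by Benjamini-Hochberg at 0.05. Ratios were tested by exact permutation in scipy 1.17.1. The limma step was tested on simulated data. Values by sample are given for members with at least 10 TPM in a sample or a range of line means of at least 2 on the log2 scale. From 53 further pathway genes, the constitutive proteasome subunits, 6 regulators and the largest called change in each direction per group are named. Coordinates and promoters come from RefSeq on GRCh38.p14, in which all 33 members were matched. Members, lists and tests were chosen with earlier results of these data known. Alternatives were other scalings, pseudocounts, filters and variance models, a replicate block, a fold threshold and each sample left out.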

Additional observations from a re-analysis of the deposited data

How the results depend on the processing

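Over the alternatives that kept all samples, 204 of 214 member differences of DU145 and PC3 from the other 3 lines kept direction and call, 2 lost the call, 6 gained it and 2 turned, and with a sample left out 261 of 268 kept both and 7 gained the call. For DU145 against PC3, 209 of 214 and 253 of 268 kept the call. For LNCaP against DUCAP and VCAP, 200 of 214 and 257 of 268 did so. Among these, 12 and 7 respectively changed sign, all of them called in neither fit. The 2 turned values of DU145 and PC3 against LNCaP, DUCAP and VCAP were those of PSME2. They were -0.11 with median-ratio scaling and -0.18 with quantile normalization, beside 0.35. HLA-E, DU145 against PC3, was 0.67 without DU145 repeat 2 and -0.67 without repeat 1, beside -0.00 with both. For DUCAP against VCAP 200 of 214 and 238 of 268 kept the call, and 9 of these changed sign while called in neither fit.

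For members called lower, the number with DU145 and PC3 against the other lines was 1 when at least 1 unit was required, that in DU145 against PC3 was 1 without a filter on low values, and that in LNCaP against DUCAP and VCAP was 3 when at least 1 unit was required. For the other pathway genes, the number higher was 15 with quantile normalization and 13 when at least 1 unit was required. The number lower was 8 with median-ratio scaling, 8 with quantile normalization, 6 without mitochondrial genes and 1 when at least 1 unit was required.

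With each sample left out in turn, 26 to 27 members were called over the 5 lines. DU145 and PC3 against the other lines gave 20 to 21 higher and 3 to 4 lower, DU145 against PC3 18 to 22 higher and 0 to 1 lower (1 without DU145 repeat 1), LNCaP against DUCAP and VCAP 15 to 17 higher and 4 to 5 lower, and DUCAP against VCAP 0 higher and 6 to 13 lower. The other pathway genes gave 26 to 29 higher and 1 to 3 lower. The ratio differences ranged from 2.76 to 3.56 for PSMB8/PSMB5, from 0.43 to 1.49 for PSMB9/PSMB6 and from 0.40 to 1.01 for PSMB10/PSMB7, and with 0.1 TPM added they were 3.98, 2.06 and 0.76.

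Same-numbered repeats did not deviate together (mean r = 0.00922, from -0.191 to 0.249 over 10 pairs of lines), so the number pairs nothing. With it as a replicate block, 27 members were called over the lines, 20 higher and 3 lower in DU145 and PC3, 20 higher and 0 lower in DU145 against PC3, 17 and 5 in LNCaP against DUCAP and VCAP, and 0 and 9 in DUCAP against VCAP, and 28 and 2 of the other pathway genes.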
